A study of Schizosaccharomyces pombe with 10 samples.

Results

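The genes described here encode the proteins of the cytosolic ribosome of fission yeast (Schizosaccharomyces pombe). Members were taken by their description, as every window on chromosomes I, II and III of the deposited table that names a 40S or 60S ribosomal protein, acidic ribosomal proteins included. This gave 115 of the 6116 gene IDs in the table, 45 for the small (40S) subunit and 70 for the large (60S) subunit, over 1034 of 126317 windows. A gene had between 1 and 27 windows, with a median of 9. The table gives each window 1 gene ID, and 23 of the 138 cytosolic ribosomal protein genes in the RefSeq annotation lie under windows that carry another label, so they are not members.

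The libraries come from chromatin immunoprecipitation followed by sequencing, made to ask whether the class I myosin Myo1 is found on chromatin. Myo1-GFP libraries came from cells whose Myo1 carried green fluorescent protein, 3 from high phosphate and 3 from low phosphate medium. NoIP libraries came from the strain the labels call wild-type, 2 from each medium. Growth in either medium lasted 4 h at 30 °C. Cultures at 0.5 OD/ml were crosslinked with 3% formaldehyde, for 30 min. Beads that bind GFP are given in the labels of every library, so whether NoIP means untagged cells put through the same pulldown or chromatin without one is not known, and the strain and the treatment of the chromatin cannot be told apart. Nothing in the labels says whether replicates are separate cultures, so p-values measure the spread between these libraries.

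Ribosomal protein genes are among the most strongly transcribed genes of a growing yeast cell. Most of the proteins are needed in equal amounts, and the genes are scattered over the genome yet expressed together, and many are present as pairs of near-identical copies. In fission yeast their promoters hold an element named HomolD, which takes the place of a TATA box, and often a second element upstream of it named HomolE. Transcription of these genes is known to fall when nutrients run short. A chromatin preparation without a specific antibody target still gives more reads from some parts of the genome than from others, and strongly transcribed genes are a known place for such signal.

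Promoters were searched for HomolD as CAGTCACA and for HomolE as ACCCT repeated in tandem without a gap, on both strands, in the 250 bp upstream of the annotated gene start. HomolD was found in 76 of 115 members (66.1%), against 134 of 5112 protein-coding genes (2.62%). HomolE was found in 34 members (29.6%), against 62 of all protein-coding genes (1.21%). Matches of the 2 strings can overlap by 1 base at most. Both were held by 21 members and neither by 26. HomolD lay at a narrow distance, its first base between 75 and 40 bp upstream of the start in 75 members, with a median of -51. The small and large subunit genes held it in like shares, 30 of 45 and 46 of 70. The first 7 letters alone were found in 106 members. A match is a match of letters only, and no match in a window says nothing about binding.

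The 6 promoters below are shown because they passed the threshold for higher signal in low phosphate in 1 fit, as described further on. Each is the 120 bases upstream of the annotated start, 5′ to 3′ on the strand of the gene, with HomolD and HomolE in capitals. Sequences and positions are from the RefSeq genome ASM294v3.
rps801 (chrI:4287433-4287552, minus strand): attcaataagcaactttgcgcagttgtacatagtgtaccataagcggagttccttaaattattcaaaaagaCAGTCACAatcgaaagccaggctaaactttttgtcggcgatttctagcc
rpl35A02 (chrII:2405979-2406098, minus strand): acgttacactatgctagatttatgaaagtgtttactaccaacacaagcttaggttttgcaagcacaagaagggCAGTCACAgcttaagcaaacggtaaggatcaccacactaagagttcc
rpl1701 (chrII:1734010-1734129, minus strand): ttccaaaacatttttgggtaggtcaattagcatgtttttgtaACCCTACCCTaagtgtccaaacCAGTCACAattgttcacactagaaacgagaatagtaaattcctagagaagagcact
rpl1601 (chrII:624056-624175, minus strand): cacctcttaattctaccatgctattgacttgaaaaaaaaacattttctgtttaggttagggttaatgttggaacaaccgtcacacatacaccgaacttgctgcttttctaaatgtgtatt
rpl2502 (chrII:2690701-2690820, plus strand): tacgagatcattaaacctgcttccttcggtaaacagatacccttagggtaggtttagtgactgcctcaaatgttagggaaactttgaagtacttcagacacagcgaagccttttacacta
rpl402 (chrII:3637674-3637793, minus strand): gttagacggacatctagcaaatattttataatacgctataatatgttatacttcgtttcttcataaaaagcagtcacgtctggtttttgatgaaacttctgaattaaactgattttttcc

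The promoters of rps801, rpl35A02 and rpl1701 hold HomolD with its first base at -49, -47 and -56, and that of rpl1701 also holds HomolE at -78. Those of rpl1601, rpl2502 and rpl402 hold neither full string in these 120 bases. The first 7 letters of HomolD do occur in that of rpl402 and, on the opposite strand, in that of rpl2502.

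Signal on the members was measured as the mean of the deposited values over the windows of a gene, on a log2 scale, relative to the median window of the same library. The libraries differed 30.8-fold in depth, if the smallest step in each library's values is 1 read. The 2 shallow libraries were replicate 3 of Myo1-GFP in high phosphate, whose median window held 8 steps, and replicate 3 of Myo1-GFP in low phosphate, with 11. The other 8 libraries held between 64 and 311 steps in the median window. No member window was at 0 in any library, and the lowest member gene held 17 steps in each of the 2 shallow libraries and at least 138 in the 8 deeper ones. All 115 members therefore passed the filter on low values.

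Ribosomal protein genes carried more signal than other genes in every library, with or without tagged Myo1. In high phosphate, the median member stood at 0.51, 0.50 and 0.80 in Myo1-GFP replicates 1, 2 and 3, and at 0.63 and 0.60 in NoIP replicates 1 and 2. In low phosphate it stood at 0.51, 0.68 and 0.46 in the Myo1-GFP replicates and at 0.70 and 0.54 in the NoIP replicates. The median of all 6116 genes lay between -0.01 and 0.12, so no library's member median came near its all-gene median. At least 106 of 115 members lay above the median gene in 9 of the libraries, and 94 did in shallow Myo1-GFP low phosphate replicate 3. Above the median gene in all 10 libraries were 82 members (71.3%), against 955 of all 6116 genes (15.6%). The 23 ribosomal protein genes under other labels, read by position, had medians between 0.45 and 0.91, and at least 18 of them lay above the median gene in each library.

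**Figure D1:**
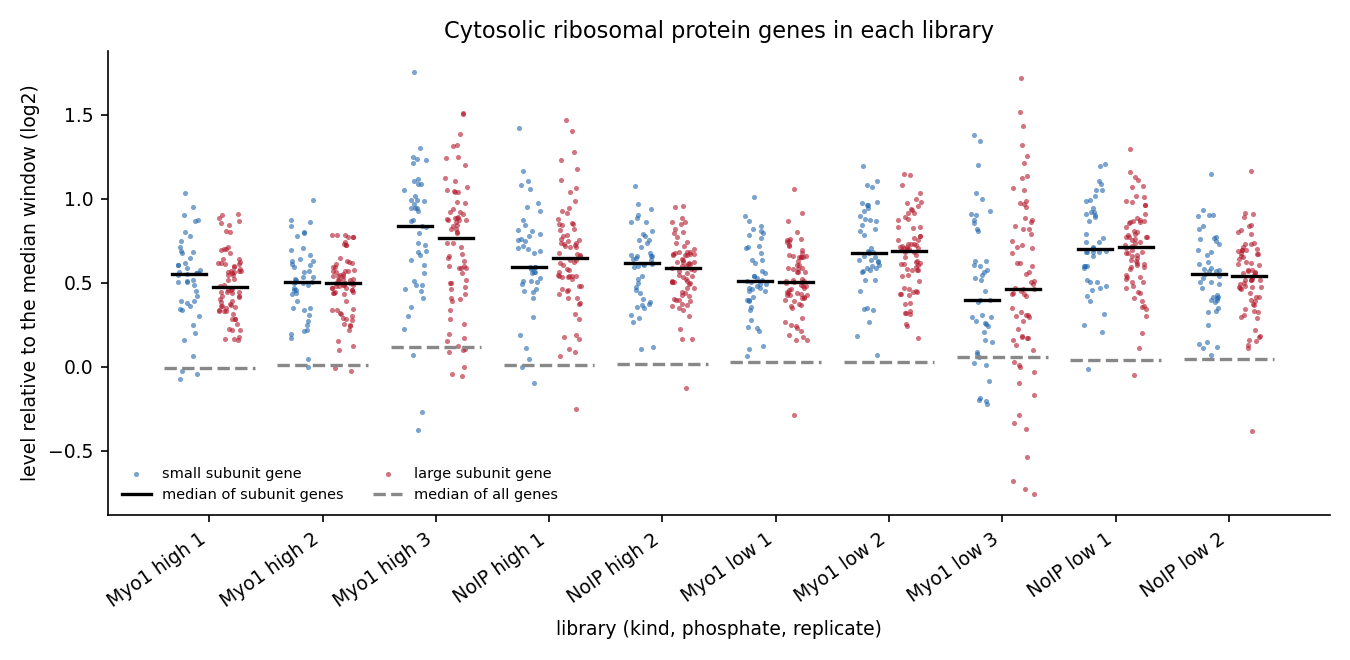
Level of the 115 members in each library, as mean signal relative to the median window (log2), for 45 small and 70 large subunit genes. Black bars are the medians of the subunit genes and dashed grey bars the median of all 6116 genes. Every black bar lies above its grey bar, and the points spread most in the 2 shallow libraries (Myo1 high 3 and Myo1 low 3).

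The proteins of the small subunit, which reads the message, and those of the large subunit, which joins amino acids, had genes with nearly the same signal. The small subunit median minus the large subunit median was 0.08, 0.01 and 0.07 in the Myo1-GFP high phosphate replicates and -0.05 and 0.03 in the NoIP high phosphate replicates. In low phosphate it was 0.01, -0.01 and -0.06 in the Myo1-GFP replicates and -0.01 and 0.01 in the NoIP replicates. It was above 0 in 6 libraries and below 0 in 4. The spread among the members was far wider than these differences. Both subunits together, members ranged from -0.13 to 1.08 even in deep NoIP high phosphate replicate 2.

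Ranked by the mean over the 4 NoIP libraries, the 5 highest were rps20, rpl4102, rps2, rpl8 and rps102. The gene for S20, a protein of the head of the small subunit, had 1 window only, at 1.42 and 1.08 in the NoIP high phosphate replicates and 1.21 and 1.14 in the NoIP low phosphate replicates. The gene for S2 stood at 1.10, 0.97, 1.19 and 0.91 in the same libraries, and that for L41, the smallest protein of the ribosome, at 1.28, 0.72, 1.30 and 1.16. The rps2 and rps20 genes lie close together on chromosome III. The 5 lowest were rpp103, rps1801, rpl3703, rps2201 and rps1902. The lowest, rpp103, stood at 0.18 and -0.13 in the NoIP high phosphate replicates and at -0.05 and -0.38 in the NoIP low phosphate replicates, so that 3 of the 4 values lay below the typical window. The order within the 5 highest and within the 5 lowest changed from library to library.

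The stalk proteins form the flexible arm of the large subunit that calls in elongation factors. Rpp0 anchors the stalk and pairs of P1 and P2 proteins hang from it. Over the 4 NoIP libraries, the mean level was 0.60 for rpp0, 0.60 for rpp201, 0.32 for rpp202, 0.56 for rpp102, 0.44 for rpp101 and -0.10 for rpp103. The 3 P1 genes thus differed more from each other than most paralogs, while rpp0, whose 27 windows extend beyond the annotated gene, lay near the middle of the members.

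Paralogs were compared for 40 families with at least 2 members, which hold 84 members. The median gap between the highest and lowest copy of a family was 0.19, and the range was from 0.0031 to 0.68. The widest gaps were in S22 (rps2202 at 0.82 and rps2201 at 0.14), in P1 and in genes numbered 8. The rps22 copies are 92.4% identical in coding sequence. Copy rps2202 stood at 0.93, 0.81, 0.89 and 0.66 in NoIP high phosphate replicates 1 and 2 and NoIP low phosphate replicates 1 and 2, and rps2201 stood at -0.10, 0.12, 0.31 and 0.25, so the copies did not overlap. Among the genes numbered 8, rpl8 (1.03, described as L7a/L8) shares between 48.7% and 50.1% of its coding bases with the 3 L8 genes, and rpl801 (0.82), rpl803 (0.49) and rpl802 (0.39) share between 90.8% and 93.0% with each other. Of the members, 32 have a paralog with at least 90% coding identity, and how the authors' alignment divided reads between such copies is not stated, so gaps between close copies are uncertain.

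Members are short genes with a high share of G and C bases. The median length was 690 bp against 1842 bp for 4607 other protein-coding genes, and the median GC content was 42.6% against 36.7%. Among the other genes, the mean level over the 4 NoIP libraries went with GC content (Pearson r = 0.24 across genes, which are not independent), whereas among the 115 members r was 0.0005. Genes in the same range of GC content still differed. Between 38% and 40% GC the median was 0.66 for 16 members and 0.03 for 891 other genes, and between 44% and 46% it was 0.64 for 28 members and 0.34 for 31 others. Above 46% the order turned, with 0.59 for 17 members and 1.11 for 20 others. The part of GC content in the members' level was not tested beyond these ranges.

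**Figure D2:**
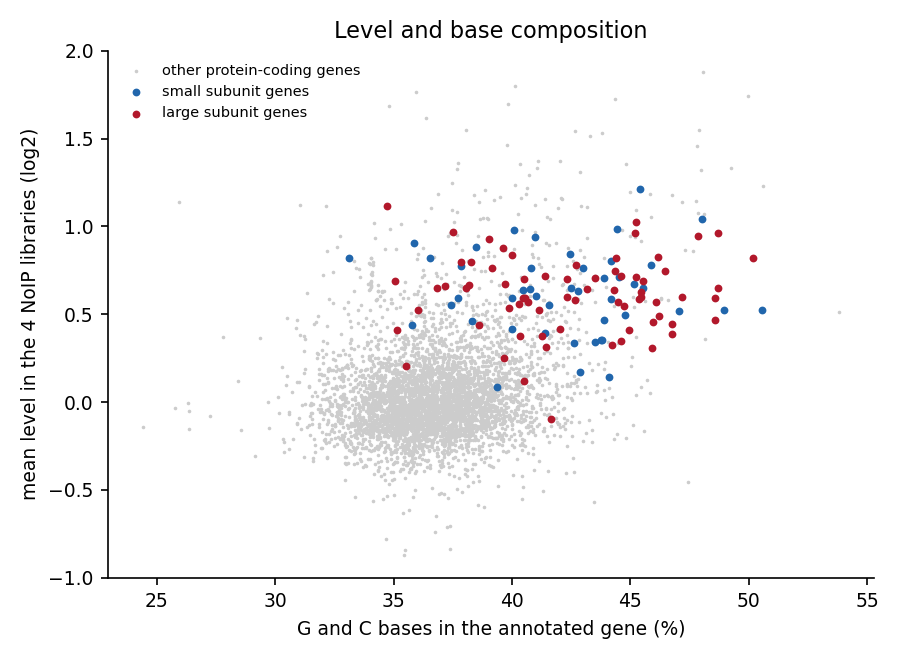
Mean level over the 4 NoIP libraries (log2, vertical) against the share of G and C bases in the annotated gene (percent, horizontal), 1 point a gene. Up to 46% GC the median member lies above the median of other genes in the same range, and above 46% it lies below. The members show no slope of their own. 1 gene falls outside the axes.

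The signal was not spread evenly along the members. In all 8 deeper libraries it was highest around the annotated 3′ end. The median over members at the end itself was 0.81 and 0.83 in Myo1-GFP high phosphate replicates 1 and 2 and 1.08 and 0.96 in the NoIP high phosphate replicates. In low phosphate it was 0.83 and 1.01 in Myo1-GFP replicates 1 and 2 and 1.06 and 0.93 in the NoIP replicates. All protein-coding genes together had medians between 0.06 and 0.28 at the same place in these 8 libraries. In the 250 bp past the end, all 115 members lay above the median gene in each of the 8 deeper libraries. For 59 members this stretch overlaps another annotated protein-coding gene, and its part in the signal was not tested.

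At the 5′ end the deeper libraries split by phosphate, for the members and for all genes. At 100 bp upstream of the start, the median over members was -0.23 and 0.01 in Myo1-GFP high phosphate replicates 1 and 2 and -0.12 and 0.05 in the NoIP high phosphate replicates. At the same distance it was 0.41 and 0.41 in Myo1-GFP low phosphate replicates 1 and 2 and 0.52 and 0.42 in the NoIP low phosphate replicates. The 4 deeper low phosphate libraries were thus all higher than the 4 deeper high phosphate ones. All protein-coding genes together had a smaller split of the same direction, from -0.28 to -0.11 in the deeper high phosphate libraries and from -0.05 to 0.04 in the deeper low phosphate ones. Inside the gene, 300 bp from the start, the order was reversed, with 0.47 to 0.63 in the high phosphate libraries and 0.25 to 0.53 in the low phosphate ones, which overlapped. All genes had the same order there without overlap, from -0.12 to -0.05 in high and from -0.22 to -0.13 in low phosphate. The shallow libraries did not show this split, with 0.32 in high and 0.24 in low phosphate upstream of the start.

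**Figure D3:**
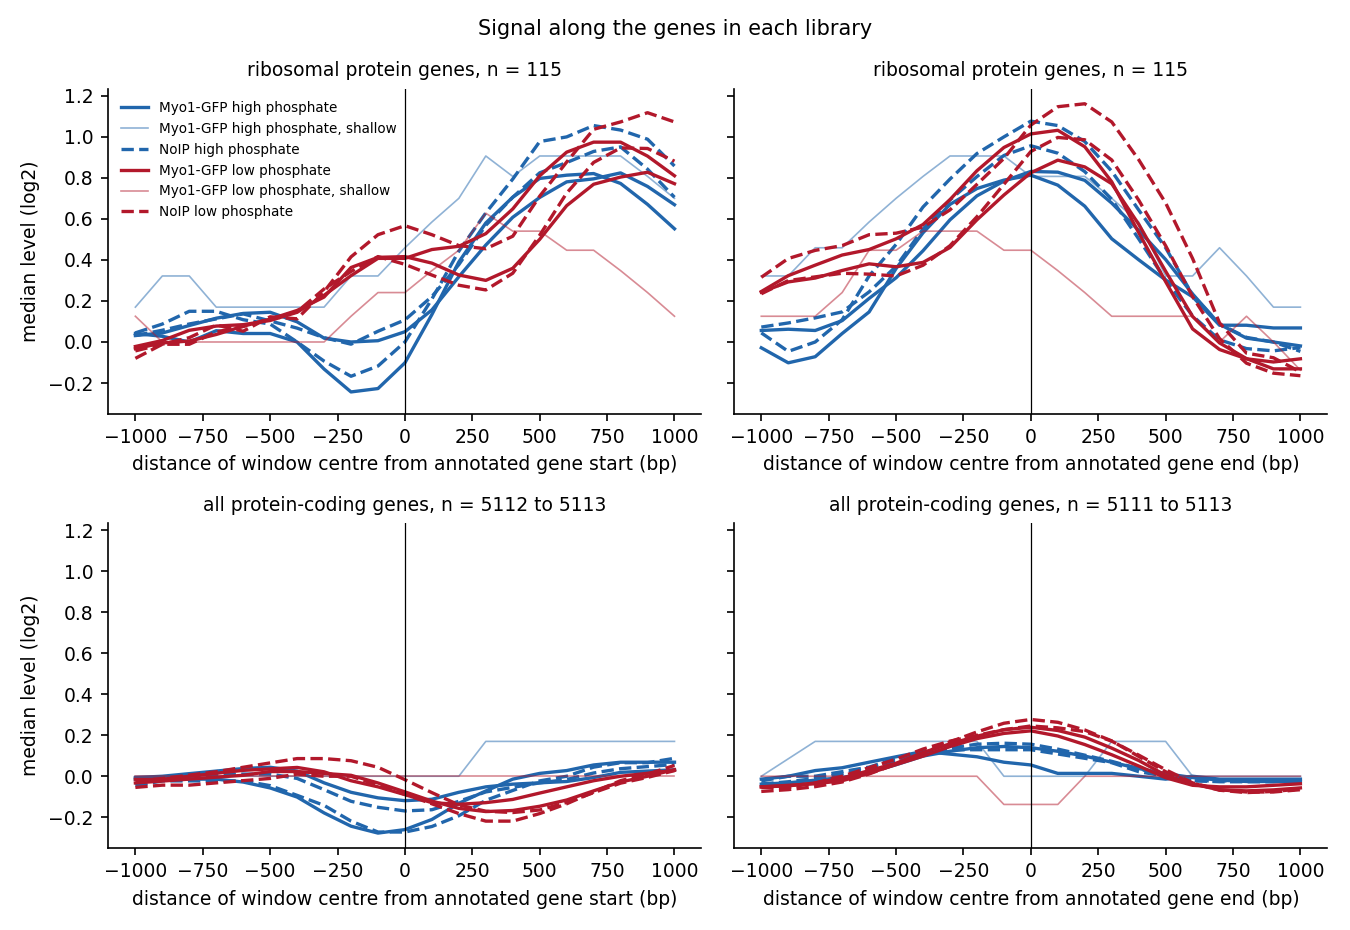
Median level (log2) of windows by the distance of their centre from the annotated gene start (left) and end (right), for the 115 members (top) and for all protein-coding genes (bottom), 1 line a library. Blue is high and red low phosphate, solid is Myo1-GFP and dashed NoIP, and thin lines are the 2 shallow libraries. At and just upstream of the start of the members the thick red lines lie above the thick blue ones. All thick lines of the members peak near the end.

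Because of this profile, promoters were fitted on their own, a choice made after the data were seen. The promoter level was the mean of windows centred in the 250 bp upstream of the start, for 5112 protein-coding genes, tested with limma with Benjamini-Hochberg adjustment over all of them. As windows are 200 bp long, they reach into the first 100 bp of the gene. For 37 members the 250 bp overlap another protein-coding gene, and 6 members lie so close to another member that they can share windows.

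With all 10 libraries and no replicate block, 6 member promoters passed the threshold in Myo1-GFP, all higher in low phosphate. Of all promoters, 131 were higher (2.56%) and none was lower. With same-numbered libraries as a replicate block within each kind, 0 members and 0 of all promoters passed, and leaving out any 1 of 5 libraries, named further on, also gave 0 members. The 6 code for proteins of both subunits, with S8 in the small subunit and L4, L16, L17, L25 and L35A in the large subunit.

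On the rps801 promoter the level was -0.36, 0.03 and 0.00 in Myo1-GFP high phosphate replicates 1, 2 and 3, and 0.79, 0.86 and 0.9999 in Myo1-GFP low phosphate. All 3 low phosphate values lay above all 3 high phosphate values. The change was 0.99 (SE 0.19, limma adjusted p = 0.0307, n = 3 and 3), and under the alternatives that p went from 8.285e-08 to 0.121. The NoIP libraries stood at -0.01 and 0.36 in high and 0.96 and 0.94 in low phosphate, again without overlap.

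On the rpl35A02 promoter the level was -0.26, -0.03 and 0.12 in Myo1-GFP high phosphate and 0.76, 0.93 and 0.60 in Myo1-GFP low phosphate. The groups did not overlap, and the change was 0.82 (SE 0.18, limma adjusted p = 0.0379). In NoIP the level was -0.09 and 0.01 in high and 1.02 and 1.05 in low phosphate, a change of 1.07 (SE 0.22) that missed the threshold (limma adjusted p = 0.0661).

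On the rpl1701 promoter the level was -0.36, -0.08 and -0.30 in Myo1-GFP high phosphate and 0.66, 0.57 and 0.45 in Myo1-GFP low phosphate. The change was 0.81 (SE 0.17, limma adjusted p = 0.0366), and NoIP stood at -0.29 and 0.00 in high and 0.70 and 0.58 in low phosphate. The other 3 promoters had changes in Myo1-GFP of 0.85 for rpl1601, 0.81 for rpl2502 and 0.75 for rpl402 and limma adjusted p of 0.0458, 0.0479 and 0.0485. In each of these 3 genes no low phosphate value lay below a high phosphate value of the same kind of library.

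**Figure D4:**
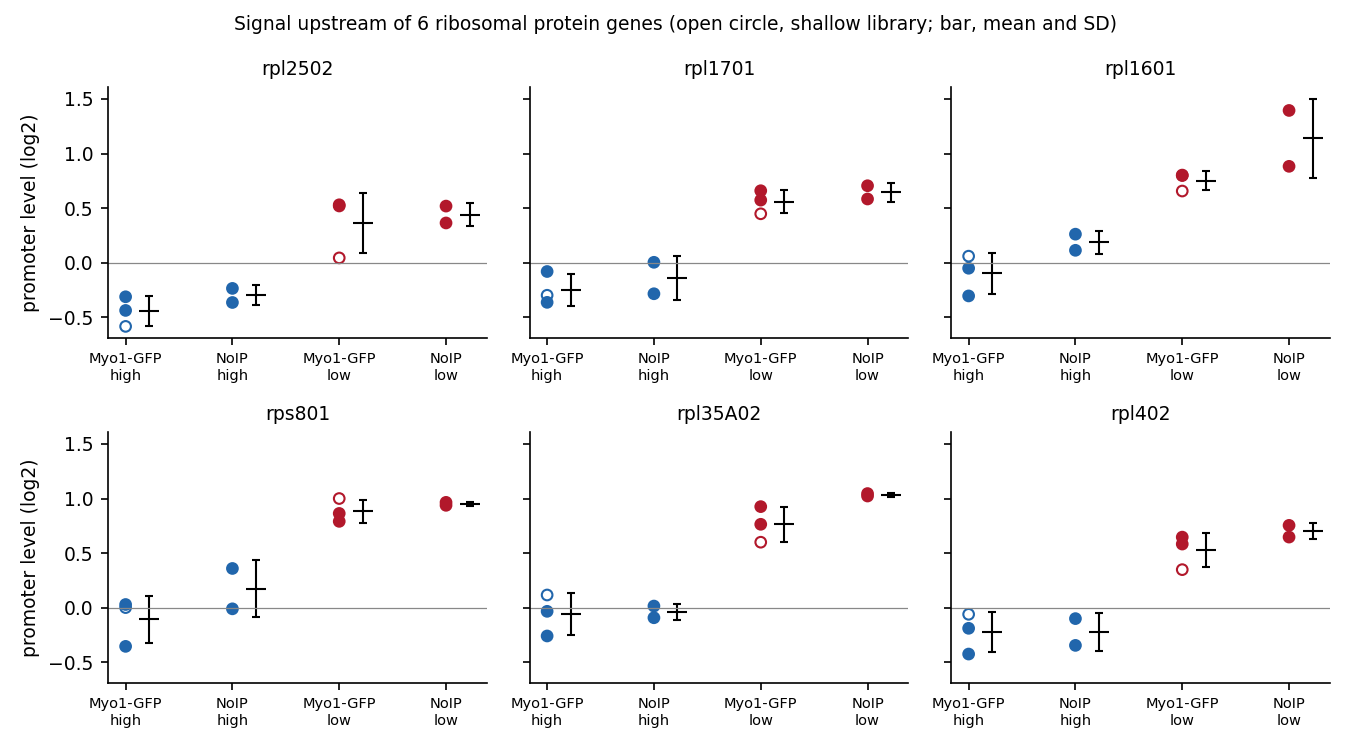
Promoter level (log2, relative to the median window) of the 6 members past the threshold in Myo1-GFP, by group, 1 point a library, with open circles for the 2 shallow libraries and bars for the mean and SD. In every panel the low phosphate points lie above the high phosphate points in Myo1-GFP and in NoIP.

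In NoIP no member promoter passed the threshold with all 10 libraries in the fit, where 17 of all promoters did (0.333%), and 32 members (27.8%) had an unadjusted p under 0.05, against 13.4% of all promoters. The members with the smallest p were rpl35A02, rpl39 and rpl402. On the promoter of rpl39, whose product lines the exit of the ribosomal tunnel, the level was -0.22 and 0.20 in NoIP high and 1.12 and 0.87 in NoIP low phosphate. The change was 1.003 (SE 0.23, limma adjusted p = 0.0825).

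The count of promoters past the threshold was higher without the shallow libraries. Both of these are Myo1-GFP, so the NoIP changes stayed the same, and only their SE and p moved with the shared estimate of the spread. Without the 2 shallow libraries, 60 of 115 members (52.2%) rose with low phosphate in Myo1-GFP against 968 of all promoters (18.9%), and 67 members (58.3%) were higher in NoIP against 1219 of all (23.8%). No member was lower. In both kinds of library at once, 50 members (43.5%) were higher, against 824 of all promoters (16.1%). By plain order, 91 members (79.1%) had every deeper low phosphate library above every deeper high phosphate library within Myo1-GFP and within NoIP, against a background of 37.3% of all promoters. With all 10 libraries this held for 25 members, against 14.2%.

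In these 8 libraries the median member changed by 0.47 in Myo1-GFP and by 0.52 in NoIP, with a median SE of 0.16 for a single member. The median of all promoters also moved, by 0.13 in Myo1-GFP and 0.19 in NoIP, so relative to the median promoter the members' rise was smaller. Centred on the median promoter, the 8 libraries gave 0.32 and 0.31 for the median member, and 29 and 37 members higher against 12.6% and 13.8% of all promoters. This centring also moved the split of all calls, from 968 higher and 8 lower to 646 higher of 739 in Myo1-GFP, and from 1219 higher and 21 lower to 706 higher of 969 in NoIP. The largest rises among members, named after their values were seen, were 1.22 on rps1702 in Myo1-GFP and 1.30 on rps3 in NoIP. Changes below 0 were found for 5 members in Myo1-GFP and 3 in NoIP, rps403 and rpp103 among them in both, and none of these passed the threshold.

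**Figure D5:**
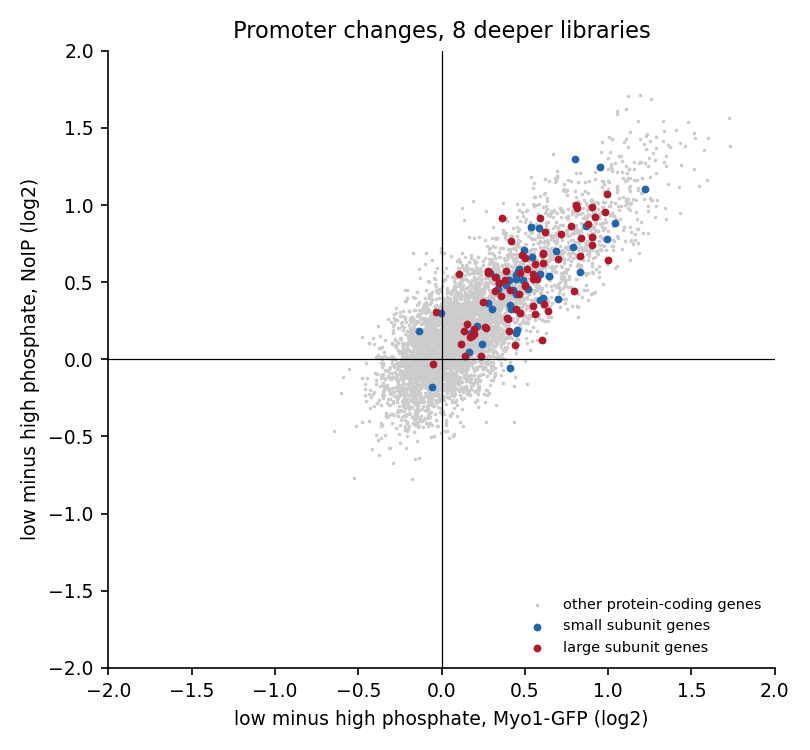
Change of the promoter level between low and high phosphate (log2) in Myo1-GFP (horizontal) and in NoIP (vertical) over the 8 deeper libraries, 1 point a gene. Most of the 115 members lie in the upper right, and 1 promoter falls outside the axes.

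Subunit and an exact match to HomolD made little difference to the median. In Myo1-GFP the median change over the 8 libraries was 0.45 for the 45 small and 0.48 for the 70 large subunit genes, and in NoIP it was 0.51 and 0.52. It was 0.48 for the 76 members with HomolD and 0.46 for the 39 without in Myo1-GFP, and 0.50 and 0.55 in NoIP. The 39 lack an exact match of 8 letters, but 106 of the 115 members hold the first 7. Whether HomolD matters to the change was thus not tested. For 58 genes that are not members but hold HomolD it was 0.45 in both. The 23 ribosomal protein genes under other labels were not taken out of this set, and how many of them it holds was not counted. The 58 thus cannot be read as genes outside the ribosome. The 78 members with no other protein-coding gene in the promoter had medians of 0.48 in Myo1-GFP and 0.53 in NoIP, close to those of all members.

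How firmly single promoters are called depends on few libraries. Leaving out single libraries gave between 0 and 13 members in Myo1-GFP. The count was 0 without Myo1-GFP high phosphate replicate 1, Myo1-GFP low phosphate replicate 1 or 2, or either NoIP low phosphate library. It was 1 without either NoIP high phosphate library, 3 without Myo1-GFP high phosphate replicate 2, 9 without Myo1-GFP high phosphate replicate 3 and 13 without Myo1-GFP low phosphate replicate 3. Over the same fits the count of all promoters went from 7 to 349. The share of all promoters is not given for each of these fits, so the counts say nothing about the members as a set. With each same-numbered pair as a replicate block within Myo1-GFP and within NoIP, 0 members passed with 10 libraries. With the 8 deeper ones 68 members (59.1%) were higher in Myo1-GFP, against 22.7% of all promoters, and 73 (63.5%) in NoIP, against 28.8%. Which libraries ran on which instrument is not given, so phosphate and any such batch cannot be told apart.

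Promoters of glycolysis and elongation factor genes had median changes near those of the members. These lists were fixed by name, and the part of transcription in the change was not tested. Over the 8 deeper libraries the median was 0.51 for Myo1-GFP and 0.60 for NoIP over 16 glycolysis genes, with 10 higher in each. It was 0.39 and 0.56 for 7 translation elongation factor genes. For 67 genes of the mitochondrial ribosome, which is built separately from the cytosolic one, it was 0.10 and 0.11, with 9 and 14 higher. In the same fits, 18.9% of all promoters were higher in Myo1-GFP and 23.8% in NoIP. Medians were 0.26 and 0.22, with 1 and 2 higher, for 5 genes listed as regulators of ribosomal protein transcription. The 5 were fhl1, ifh1, sfp1, rap1 and tbp1, and their part in this transcription was not tested. Of the same list, crf1 was not in the annotation and no window carried the gene ID of rrn7. At the level of whole genes over the 4 NoIP libraries, the medians were 0.63 for the members, -0.06 for mitochondrial ribosomal protein genes, 0.84 for glycolysis genes and 1.32 for elongation factor genes.

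Averaged over whole genes, no member passed the threshold between low and high phosphate. With limma over 6116 genes, 0 members passed in Myo1-GFP and 0 in NoIP. Of all genes, 11 (0.18%) were higher in Myo1-GFP, and in NoIP 21 passed (0.343%), 17 of them higher (0.278%) and 4 lower (0.0654%). The median member changed by -0.05 in Myo1-GFP and -0.01 in NoIP, and the former turned to 0.08 without the 2 shallow libraries. An unadjusted p under 0.05 was found for 2 members (1.74%) in each, against 11.5% of all genes in Myo1-GFP and 7.26% in NoIP. By order alone, 6 members (5.22%) were higher in low phosphate without overlap within both kinds of library, against 7.46% of all genes. In the 8 deeper libraries 0 members passed in Myo1-GFP, against 5.9% of all genes (5.54% higher). In NoIP 1 member was higher and 1 lower there, against 9.34% of all genes (7.85% higher and 1.49% lower). With array weights, which give noisy libraries less weight, 5 members were higher in Myo1-GFP and 0 lower, against 13.0% and 2.5% of all genes, and 1 was higher in NoIP, against 5.09%.

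The member with the smallest p in both was rpl39. Its whole-gene level was 0.45, 0.50 and 0.51 in Myo1-GFP high phosphate and 0.91, 1.08 and 1.26 in Myo1-GFP low phosphate. In NoIP it was 0.16 and 0.58 in high and 1.16 and 0.91 in low phosphate, so neither kind of library overlapped between the media. The change was 0.60 (SE 0.15, limma adjusted p = 0.146) in Myo1-GFP and 0.66 (SE 0.18, limma adjusted p = 0.263) in NoIP. Over the alternatives the limma adjusted p of rpl39 ranged from 0.00731 to 0.401 in Myo1-GFP and from 0.0325 to 0.9999 in NoIP.

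The next in Myo1-GFP were rpl2502, with a change of 0.29 (SE 0.10, limma adjusted p = 0.309), and rps1901, with 0.23 (SE 0.10, limma adjusted p = 0.438). The next in NoIP were rpl1701, with 0.36 (SE 0.16, limma adjusted p = 0.678), and rps403, with -0.38 (SE 0.18, limma adjusted p = 0.707). Without NoIP high phosphate replicate 1 these 2 were 0.18 and -0.24. Of single windows, 0 of the 1034 member windows passed in Myo1-GFP or NoIP by limma, against 22 windows of all (0.0174%) in Myo1-GFP and 0 (0.0%) in NoIP.

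No member passed the threshold between Myo1-GFP and NoIP. By limma, in high or low phosphate alone or with both media averaged, 0 members and 0 of 6116 genes passed (0.0%). In the same order, 0, 0 and 1 members had an unadjusted p under 0.05. The share of all genes is not set beside these counts, so they are no result about the members. The 1 member was rpl102, whose product L1 forms a movable stalk on the side where spent tRNA leaves. Its level was 0.48, 0.77 and 0.09 in Myo1-GFP high phosphate and 0.75, 0.82 and -0.29 in Myo1-GFP low phosphate. In NoIP it was 0.99 and 0.95 in high and 1.13 and 0.80 in low phosphate. The 2 lowest values were those of the shallow libraries. The difference over both media was -0.53 (SE 0.23, limma adjusted p = 0.956), and without the 2 shallow libraries it was -0.26 (SE 0.10, limma adjusted p = 0.702). Among all alternatives the limma adjusted p ran from 0.689 to 1.

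The members next in p were rps2502 and rps2202 in high phosphate, with -0.37 and -0.50, and rpl2801 and rps001 in low phosphate, with 0.42 and -0.35. Over both media rps2502 and rpl2102 followed, with -0.30 and -0.18. Each of these had a limma adjusted p of at least 0.956, and of at least 0.5462 under the alternatives. These values rested on single libraries. Without Myo1-GFP high phosphate replicate 3 rps2202 was at -0.18, and without Myo1-GFP low phosphate replicate 3 rpl2801 was at 0.10 and rps001 at -0.15. Without NoIP high phosphate replicate 1 rps2502 was at -0.20 in high phosphate and rpl2102 at -0.08. By order alone, the share of members lower in Myo1-GFP clearly exceeded that of all genes only in high phosphate with the 8 deeper libraries. In high phosphate 13 members (11.3%) were lower without overlap, against 10.1% of all genes, and in the 8 deeper libraries 58 were (50.4%), against 23.2%. In low phosphate the counts were 3 with all 10 libraries and 3 with the 8 deeper, against 12.8% and 20.5%. On promoters, too, 0 members passed in any of the 3 contrasts of Myo1-GFP with NoIP, and 0 had an unadjusted p under 0.05. The share of all promoters is not set beside these counts either. The members with the smallest p there were rpl3402, rpl1502 and rpl8 in high phosphate, rps1901, rps3 and rpl3201 in low phosphate, and rpl8, rpl1601 and rps29 over both.

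No difference in the effect of phosphate between Myo1-GFP and NoIP was detected. For the interaction, 0 members and 0 of all genes passed (0.0%), and 0 members had an unadjusted p under 0.05 for whole genes or for promoters. The unadjusted counts are given without the share of all genes or promoters, so they are no result about the members. The smallest p among members were those of rpl2502, rpl2801 and rps1501 for whole genes, with differences of 0.29, 0.66 and 0.56, and of rps3, rpl803 and rps001 for promoters, with -0.97, -0.63 and -0.60. The SE of these lay between 0.16 and 0.50, so differences of this size could not be told from 0. Without Myo1-GFP low phosphate replicate 3 they were 0.34 for rpl2801, 0.31 for rps1501 and -0.56 for rps3, and without Myo1-GFP high phosphate replicate 3 they were -0.37 for rpl803 and -0.35 for rps001.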

How the data were processed

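The authors aligned reads to the ASM294v2 genome, trimmed them with Trim Galore 0.3.8 per the labels (which also list Bowtie2 2.2.4) and quantified windows in SeqMonk. Duplicate removal and mapping quality filters are not given in the sources used here. The deposited values are signal, read counts scaled by a factor per library that the sources do not define, in windows of 200 bp every 100 bp. They are whole multiples of 1 step per library, but as they are scaled signal in overlapping windows, not gene counts, no count test was used. Steps summed to between 1.42 and 43.8 M per library, a read being counted in each window it overlaps. Counting error only is covered by this depth, since copies of a molecule are not independent.

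A gene's value was the mean signal over its windows, as log2(value + 1) minus the same of the library's median window. Values above 0 in at least 2 libraries were kept. limma 3.58.1 in R 4.3.3 (lmFit, eBayes with trend) was run with 1 mean per group and all 10 libraries, two-sided, with Benjamini-Hochberg adjustment over all features and a threshold of 0.05. Changes are differences on the log2(value + pseudocount) scale. The whole-gene fit with all 10 libraries was tested on simulated data, with the same spread set for every gene and library. The promoter fits and the fits without the shallow libraries were not tested in this way. Positions, GC content, coding identity and promoters came from RefSeq ASM294v3, in which the 3 chromosomes end where the last windows of the table end. Of windows with a gene ID, 99.4% had an annotated ID. The annotation was matched by systematic gene ID for all 115 members, and 95.7% of matched windows overlapped their gene. Python 3.11.15, numpy 2.4.6, pandas 2.3.3 and matplotlib 3.10.9 were used.

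Members, lists, tests and alternatives were chosen with earlier results of these data known, and the promoter fits and their alternatives after the data were seen. Named genes were, per contrast, members past the threshold (at most 5, all 6 for promoters), or else the 3 with the smallest p, and the 5 highest and 5 lowest in NoIP, the stalk proteins and the 3 families with the widest spread. Same-numbered replicates were taken as pairs of high and low phosphate libraries within a kind of library because the deviations from the group means correlated in each Myo1-GFP pair (r of 0.16, 0.30 and 0.30; 0.51 for NoIP, where 2 pairs give the same r by construction). The pairing is not clean, since Myo1-GFP high phosphate replicate 2 correlated best with low phosphate replicate 1 (r = 0.40). Across Myo1-GFP and NoIP, r was negative for the number 1 (-0.31 to -0.11) and positive for the number 2 (0.15 to 0.50).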

Additional observations from a re-analysis of the deposited data

Results flagged for a closer look

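The whole-gene level of rpl2502 stood out because Myo1-GFP and NoIP separated in opposite directions in the 2 media. In high phosphate it was 0.31, 0.39 and 0.41 in Myo1-GFP and 0.58 and 0.47 in NoIP, and in low phosphate 0.56, 0.71 and 0.72 in Myo1-GFP and 0.54 and 0.51 in NoIP. Myo1-GFP minus NoIP was -0.15 in high and 0.14 in low phosphate, which differ by -0.29. The interaction did not pass the threshold (SE 0.16, limma adjusted p = 0.999). It was 1 of 39 named members looked at.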

How the results depend on the processing

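For whole genes, the count of members past the threshold moved from 0 to 5 with array weights in Myo1-GFP (low against high phosphate), and in NoIP to 1 with array weights and 2 in the 8 deeper libraries; it was 0 for the other 4 contrasts under every alternative run. All genes past the threshold numbered 11 and 21 as reported, and between 0 and 946 in Myo1-GFP and 0 and 571 in NoIP over the alternatives. Member windows moved from 0 to 123 with array weights and 48 in the 8 deeper libraries in Myo1-GFP, and to 55 and 78 in NoIP (of 1034; in the same order 8.07%, 3.94%, 4.26% and 5.81% of all windows passed), with 0 to 3 when single libraries were left out (3 without Myo1-GFP low phosphate replicate 3, in both). Member promoters numbered 6 in Myo1-GFP as reported. They were 76 with array weights, 60 in the 8 deeper libraries, 29 with these centred on the median promoter and 68 with these and a replicate block within each kind, but 1 with centring on the median promoter, 1 without a trend, 0 with an adjusted p under 0.01, 7 with a replicate block over all libraries and 0 with a replicate block within each kind, and 0 to 13 when single libraries were left out. In NoIP they numbered 0, and 64, 67, 37 and 73 under the first 4 of these, with 0 to 13 when single libraries were left out (6 and 13 without replicate 3 of Myo1-GFP in high and low phosphate). All promoters past the threshold numbered between 0 and 1331 in Myo1-GFP and 0 and 1527 in NoIP. Shares of all promoters are given further up for the fit as reported, the 8 deeper libraries and the block within each kind. The other promoter counts have no such share beside them and say nothing about the members as a set. Without the 2 shallow libraries, both Myo1-GFP, the NoIP changes themselves stayed the same. Only their SE and p differed, as each fit estimates the spread over all groups together. On the rpl39 promoter the NoIP change was 1.003 in both fits, with an SE of 0.23 with 10 and 0.16 with 8 libraries. The cause of the other shifts was not tested. The replicate block changed no other call. The members' median over the all-gene median, 0.56, stayed between 0.52 and 0.62, and the small minus large subunit median, 0.01, between -0.02 and 0.01. All 39 named changes kept their direction, but several moved in size by over 1.5 times without 1 library. Depth limits single genes in the 2 shallow libraries, where the lowest member held 17 steps.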
